A study of Homo sapiens with 6 samples.

Results

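The genes described here are 40 genes of the Notch signaling pathway, chosen by name from a fixed list, among 63241 genes in the deposited table of HT−29 cells. They cover 5 ligands, 4 receptors, 5 enzymes that attach sugars to the receptors, 6 genes of receptor cleavage, 7 genes of the nuclear complex, 7 genes of receptor traffic and turnover, and 6 target genes. HT−29 is an established human colorectal adenocarcinoma line, given in the sample labels as colon, enterocyte and wild type. The Control group held 3 libraries of cells given buffer, and the A904 group, called the Amuc_0904 group here, held 3 libraries of cells given 0.5 μM Amuc_0904, a protein of the *Akkermansia muciniphila* outer membrane, for 72 h. Dose, time and buffer are those of the study's methods, since the labels name only the groups. Whether the libraries of a group came from separate cultures is not stated, so p values measure only the spread between these libraries. The comparison asks how transcripts of a pathway that the study examined in goblet cell differentiation differed between treated and control cells.

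Notch signaling passes between touching cells. A ligand of the Delta or Jagged family on a neighbor binds a Notch receptor, ADAM10 and then the γ-secretase complex cut the receptor, and the released intracellular domain joins RBPJ and a Mastermind protein on DNA to switch on targets such as *HES1*. In the intestinal epithelium, active Notch favors absorptive cells, because HES1 represses *ATOH1*, the factor that starts the secretory lineage to which goblet cells belong.

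RBPJ reads a short DNA word, and the 250 bases before the gene starts of *HES1*, *HES5* and *NRARP* are shown because 1 well expressed target with the word, 1 target with it near 0 TPM and 1 well expressed target without it can be set side by side. The sequences are from RefSeq on GRCh38.p14, written in the direction of transcription, at chr3:194135898-194136147 on the plus strand for *HES1*, chr1:2530264-2530513 on the minus strand for *HES5* and chr9:137302272-137302521 on the minus strand for *NRARP*. Capitals mark GTGGGAA or, for the other strand, TTCCCAC, the only letters searched.
HES1: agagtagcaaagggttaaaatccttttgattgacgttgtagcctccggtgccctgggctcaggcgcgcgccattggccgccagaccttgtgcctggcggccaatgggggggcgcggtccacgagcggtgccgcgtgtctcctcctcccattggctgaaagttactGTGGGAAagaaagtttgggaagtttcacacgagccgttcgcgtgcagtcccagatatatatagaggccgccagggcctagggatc
HES5: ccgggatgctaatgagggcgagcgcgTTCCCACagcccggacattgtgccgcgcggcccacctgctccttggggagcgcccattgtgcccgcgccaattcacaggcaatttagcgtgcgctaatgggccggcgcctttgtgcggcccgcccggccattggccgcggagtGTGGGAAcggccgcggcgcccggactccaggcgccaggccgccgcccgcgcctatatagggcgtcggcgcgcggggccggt
NRARP: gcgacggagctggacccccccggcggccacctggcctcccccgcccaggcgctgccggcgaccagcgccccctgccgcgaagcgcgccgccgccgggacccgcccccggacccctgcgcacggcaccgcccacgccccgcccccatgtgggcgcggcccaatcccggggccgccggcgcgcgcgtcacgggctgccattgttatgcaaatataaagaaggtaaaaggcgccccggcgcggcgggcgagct
The word began 85 bases before the start of *HES1* and 224 and 81 bases before that of *HES5*, and these letters were not in the window of *NRARP*. Of the 40 genes, 32 had an entry in the promoter table. Among the targets, 4 of the 5 with an entry held the word, namely *HES1*, *HES5*, *HEYL* and *HEY2*, and among the other 27 members only *RBPJ* did, in 1 of its alternative windows. All 250 bases of the *HEYL* window lay in GENCODE exons, as did 52 bases for *HEY2*, 3 for *HES1* and 0 for *HES5*. The word stood in 5.43% of all 35116 windows of this length. That is a share of windows, while the counts of members are of genes, and some genes have several windows. A match is a description of letters and was not tested as a binding site.

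Values are TPM, the share of all transcripts in a library after scaling by transcript length, so levels can be compared between genes. The table holds no counts, so the depth of each library and the counting error of a value are unknown. Changes were fitted as log2(TPM + 1) with limma over the 14333 genes that reached 1 TPM in 3 or more libraries, a scale that understates the change of low genes. Of the 40 members, 29 passed this filter and 11 did not. Less RNA per cell and fewer cells of a kind cannot be told apart in these bulk libraries. Amuc_0904 replicate 1 lay nearer to the controls than the other treated libraries did. The first principal component carried 35.5% of the variance and placed the controls from −13.0 to −12.4, this library at −4.79 and the other treated libraries at 20.4 and 22.8. Its median difference from the control mean over all tested genes was 0.055 on the log2 scale, while replicates 2 and 3 had −0.024 and −0.030, and results that rest on it are also given without it.

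The epithelial markers *EPCAM*, *KRT8*, *KRT18*, *KRT19*, *KRT20*, *LGALS4*, *VIL1* and *CDH1* were at 59.0 TPM or more in every library, while *CDX2* had 0.46 to 1.71, *CDX1* 0.50 to 1.36 and *CDH17* 0.49 to 0.68 TPM. Endothelial cells are rich in Notch ligands and receptors, and the sum over 8 endothelial markers was 2.14 to 3.66 TPM in the controls and 2.21 to 2.66 TPM in the Amuc_0904 group, with *CDH5*, *KDR* and *ERG* at 0 in all 6 libraries. The 8 markers of fibroblasts and smooth muscle summed to 2.97 to 4.39 TPM, with *COL1A2* at 0 in all libraries. The 8 leukocyte markers summed to 2594 to 2637 TPM in the controls and 2490 to 2710 TPM in the Amuc_0904 group, nearly all of it *LYZ*, which secretory epithelium also makes, with *CD3E* at 0 and *PTPRC* at 0.02 TPM at most. The filter was passed by 9 of the epithelial, 2 of the endothelial, 3 of the fibroblast and smooth muscle and 4 of the leukocyte markers. Of these tested markers, 1 of 9 epithelial markers separated upward, and 1 of 2 endothelial and 1 of 4 leukocyte markers separated downward. Of the 3 fibroblast and smooth muscle markers, 0 separated. Among all tested genes, 7.59% were separated downward and 13.4% upward. The leukocyte marker *CD14* had 4.65 to 4.76 TPM in the controls and 1.89 to 2.85 TPM with Amuc_0904 (adjusted p = 0.150), the endothelial marker *EGFL7* had 1.26 to 2.02 and 0.95 to 1.24 TPM (adjusted p = 0.434), and the epithelial marker *LGALS4* had 777.4 to 789.2 and 819.6 to 870.4 TPM (adjusted p = 0.273). Without Amuc_0904 replicate 1, *KRT8*, *KRT18*, *KRT20* and *LGALS4* rose and *EPCAM* and *CDH1* fell, 4 and 2 of the 9 epithelial markers tested, and *CD14* fell. In that fit 9.51% of all tested genes rose and 9.24% fell. The part of these markers in the results was not tested.

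No member of the pathway passed the adjusted p of 0.05 in either direction. By limma 0 of 29 rose and 0 fell, where 0.0698% of all tested genes rose and 0.167% fell. At an unadjusted p under 0.05, *LFNG* was higher and *JAG2*, *PSENEN* and *CIR1* were lower, which is 3.45% and 10.3% of the tested members beside 9.95% and 5.87% of all tested genes. The 29 genes had a median log2 fold change of −0.075, beside 0.0015 over all tested genes. In the Amuc_0904 group 20 (69.0%) had a lower and 9 a higher mean, where 49.6% of all tested genes had a lower mean. In 4 members, *JAG2*, *PSENEN*, *MAML2* and *CIR1*, every Amuc_0904 library lay below every control library, and in 1, *LFNG*, every one lay above. These are 13.8% and 3.45% of the tested members, where 7.59% of all tested genes were separated downward and 13.4% upward. The 95% interval of the fold change lay within a 1.5-fold change either way for 26 of the 29 members, and reached beyond it for *JAG2*, *MFNG* and *APH1B*.

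**Figure D1:**
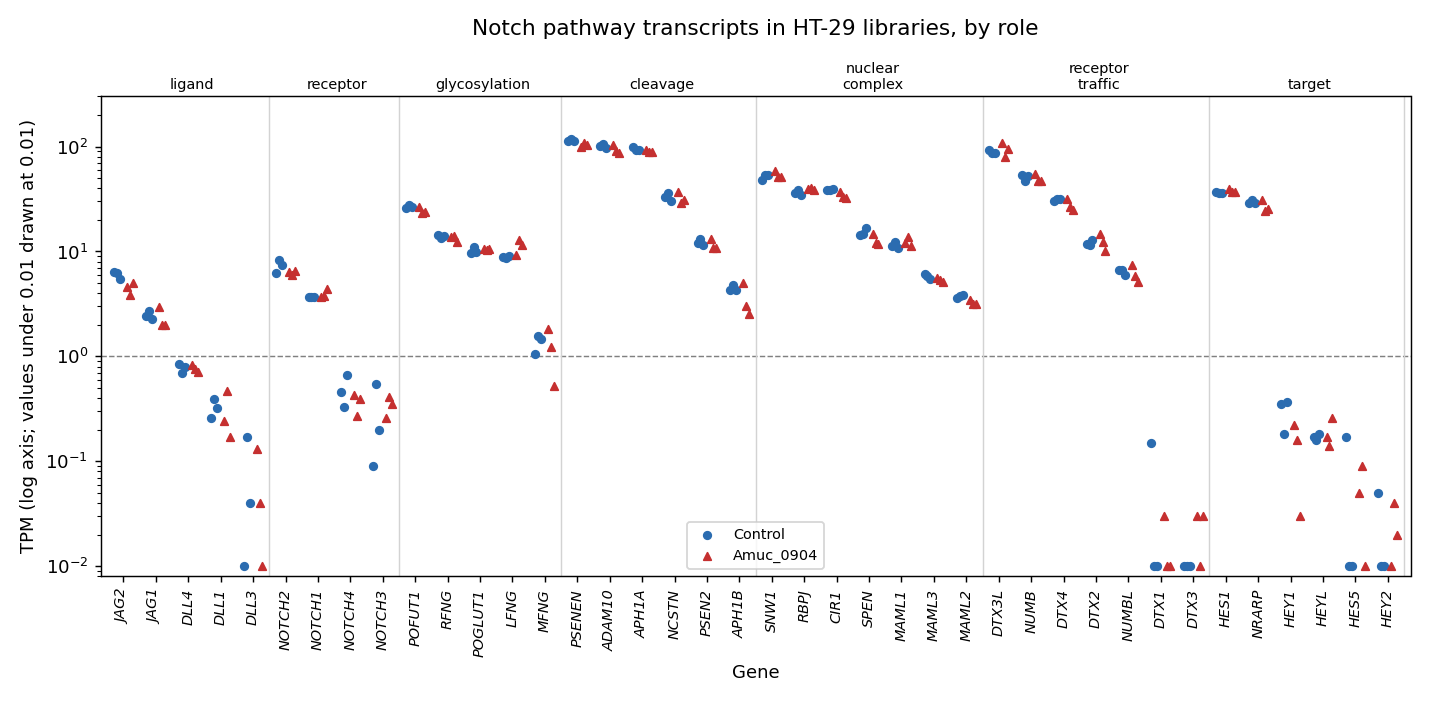
TPM on a log axis for all 40 genes, grouped by role and ordered by mean level, with 1 point per library (circles, control; triangles, Amuc_0904; dashed line, 1 TPM; values under 0.01 drawn at 0.01). *PSENEN*, *ADAM10*, *APH1A* and *DTX3L* stand near 100 TPM, while *HES5*, *HEY2*, *DTX1* and *DTX3* stay under 0.2 TPM in every library.

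Among the ligands, only *JAG2* and *JAG1* passed the filter. *JAG2*, on chromosome 14 from 105140981 to 105168824 in GENCODE on GRCh38, encodes a Jagged ligand and had 6.37, 6.24 and 5.49 TPM in control replicates 1 to 3 and 4.54, 3.81 and 5.05 TPM in Amuc_0904 replicates 1 to 3. The groups did not overlap, and the means were 6.03 ± 0.475 and 4.47 ± 0.623 TPM (SD, n = 3). This was the lowest fitted change among the members (log2 fold change −0.37, 95% interval −0.64 to −0.098, adjusted p = 0.248), and it remained short of the threshold without Amuc_0904 replicate 1 (adjusted p = 0.0877). *JAG1*, the other Jagged ligand, had 2.44, 2.69 and 2.27 TPM in the controls and 2.96, 1.98 and 1.97 TPM with Amuc_0904, so that replicate 1 was the highest of the 6 libraries and replicates 2 and 3 the lowest (log2 fold change −0.081, adjusted p = 0.819). The Delta ligands were scarce. *DLL4* had 0.69 to 0.84 TPM in the controls and 0.71 to 0.82 TPM in the Amuc_0904 group, *DLL1* had 0.26 to 0.39 and 0.17 to 0.47 TPM, and *DLL3*, a ligand that does not activate Notch in neighboring cells, had at most 0.17 TPM. Summed over the 5 ligands, the controls had 8.91 to 10.2 TPM and the Amuc_0904 libraries 7.06 to 8.69 TPM, and *JAG2* made up 62.4% ± 1.64 of that sum in the controls and 56.7% ± 6.31 in the Amuc_0904 group (SD, n = 3).

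*NOTCH2* and *NOTCH1* were the receptors above the filter. *NOTCH2*, on chromosome 1 from 119911553 to 120069626, had 6.30, 8.32 and 7.38 TPM in the controls and 6.38, 5.92 and 6.52 TPM in the Amuc_0904 group. The groups overlapped, since control replicate 1 lay among the treated libraries (log2 fold change −0.19, 95% interval −0.45 to 0.065, adjusted p = 0.432). Reads from the sequence that *NOTCH2* shares with its near copies may be assigned to either. How far this affects its value was not tested. *NOTCH2NLA*, a partial duplicate of *NOTCH2*, had 13.2, 14.6 and 13.3 TPM in the controls and 10.2, 8.55 and 8.40 TPM with Amuc_0904, without overlap (log2 fold change −0.55, adjusted p = 0.118). The total of *NOTCH2* and 4 *NOTCH2NL* genes, a sum chosen after the data were seen, was 21.6, 25.5 and 23.3 TPM in the controls. It was 18.5, 16.1 and 17.4 TPM in the Amuc_0904 group, without overlap. *NOTCH2NLA*, already separate alone, had a mean of 13.7 of 23.4 TPM in the controls and 9.06 of 17.3 TPM with Amuc_0904. The separation of this total therefore does not show one of *NOTCH2*, whose own values overlapped. *NOTCH1* had 3.70, 3.67 and 3.70 TPM in the controls and 3.65, 3.73 and 4.42 TPM with Amuc_0904. Replicate 3 alone stood above the narrow range of the other libraries (log2 fold change 0.070, adjusted p = 0.769). *NOTCH4* had 0.33 to 0.67 TPM in the controls and 0.27 to 0.43 TPM in the Amuc_0904 group, and *NOTCH3* had 0.09 to 0.55 and 0.26 to 0.41 TPM. In the controls the 4 receptors summed to 11.8 ± 1.17 TPM and the 5 ligands to 9.67 ± 0.669 TPM (SD, n = 3).

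The sugars on the extracellular part of Notch set which ligand it answers to, and the enzymes that add them did not move together. *LFNG*, the Fringe enzyme that extends O-fucose on Notch, lies on chromosome 7 from 2512529 to 2529177 and had 8.85, 8.68 and 9.05 TPM in the controls and 9.17, 12.8 and 11.5 TPM with Amuc_0904. All treated libraries lay above all controls, with replicate 1 only just so (log2 fold change 0.29, 95% interval 0.015 to 0.56, adjusted p = 0.302). Without Amuc_0904 replicate 1 it rose (log2 fold change 0.41, adjusted p = 0.0154). Of the summed TPM of the 3 Fringe genes, *LFNG* made up 36.4% to 36.7% in the controls and 37.1%, 45.5% and 47.0% in Amuc_0904 replicates 1 to 3. *RFNG* had 13.5 to 14.4 TPM in the controls and 12.4 to 14.1 TPM in the Amuc_0904 group (adjusted p = 0.697), and *MFNG*, the third Fringe, had 1.05 to 1.58 and 0.52 to 1.84 TPM (adjusted p = 0.796). *POFUT1*, which places the O-fucose that Fringe enzymes extend, was the most abundant enzyme of this group and had 25.8, 27.5 and 26.4 TPM in the controls and 26.5, 23.4 and 24.0 TPM with Amuc_0904 (log2 fold change −0.11, adjusted p = 0.459). *POGLUT1*, which adds O-glucose, had 10.1 ± 0.691 and 10.4 ± 0.141 TPM (SD, n = 3; adjusted p = 0.826).

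All 6 genes of receptor cleavage had lower means in the Amuc_0904 group, where 49.6% of all tested genes did, and none passed the adjusted p. They were also the most abundant group, with a summed control level of 360.1 ± 11.4 TPM and 334.5 ± 13.8 TPM with Amuc_0904 (SD, n = 3). These sums overlapped, at 347.5 to 369.76 TPM in the controls and 323.35 to 349.93 TPM with Amuc_0904. *PSENEN*, a small γ-secretase subunit encoded on chromosome 19 from 35745114 to 35747519, had 113.5, 117.5 and 112.3 TPM in the controls and 98.6, 108.8 and 104.3 TPM with Amuc_0904. The groups did not overlap, and here Amuc_0904 replicate 1 was the lowest library (log2 fold change −0.14, 95% interval −0.26 to −0.015, adjusted p = 0.284; −0.10 and adjusted p = 0.110 without replicate 1). *ADAM10*, the metalloprotease that cuts Notch outside the membrane, had 101.8, 105.2 and 97.7 TPM in the controls and 103.2, 90.7 and 85.9 TPM with Amuc_0904. Replicate 1 lay within the control range and the other treated libraries below it (log2 fold change −0.13, adjusted p = 0.444; −0.20 and adjusted p = 0.0307 without replicate 1). *APH1A*, a scaffold subunit, had 91.8 to 98.0 TPM in the controls and 88.0 to 93.3 TPM in the Amuc_0904 group (log2 fold change −0.065, 95% interval −0.18 to 0.053). Its paralog *APH1B* was far lower and varied more. It had 4.28, 4.74 and 4.26 TPM in the controls, 5.04 TPM in Amuc_0904 replicate 1 and 3.04 and 2.53 TPM in replicates 2 and 3 (log2 fold change −0.30, adjusted p = 0.492; −0.52 and adjusted p = 0.0226 without replicate 1). *NCSTN*, which recognizes the substrate, had 33.1 ± 3.03 and 32.1 ± 4.05 TPM (SD, n = 3), and *PSEN2*, a catalytic subunit, had 12.3 ± 0.924 and 11.6 ± 1.35 TPM. Summed over the 5 γ-secretase genes listed, the controls had 249.8 to 264.5 TPM and the Amuc_0904 libraries 237.5 to 246.8 TPM, without overlap. That sum includes *PSENEN*, which was separate alone, while *PSEN2*, *NCSTN*, *APH1A* and *APH1B* each overlapped.

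Of the 7 genes of the nuclear complex, *RBPJ*, *MAML1* and *SNW1* had higher means with Amuc_0904 and the other 4 lower means, and none passed the adjusted p. *RBPJ*, the DNA-binding protein of the pathway, had 36.4, 38.4 and 34.6 TPM in the controls and 39.6, 40.6 and 38.2 TPM with Amuc_0904, and Amuc_0904 replicate 3 was the only treated library within the control range (log2 fold change 0.11, 95% interval −0.028 to 0.25, adjusted p = 0.405). Of the Mastermind coactivators, *MAML1* had 11.4 ± 0.760 and 12.4 ± 1.17 TPM (SD, n = 3), *MAML3* had 5.78 ± 0.342 and 5.35 ± 0.222 TPM, and *MAML2* had 3.63, 3.78 and 3.81 TPM in the controls and 3.47, 3.16 and 3.15 TPM with Amuc_0904. The *MAML2* groups did not overlap (log2 fold change −0.15, adjusted p = 0.449). *CIR1*, a corepressor that binds RBPJ, lies on chromosome 2 from 174348022 to 174395715 and had 38.7, 38.3 and 39.1 TPM in the controls and 37.1, 33.3 and 32.6 TPM with Amuc_0904. Every treated library was below the controls, replicates 2 and 3 more so (log2 fold change −0.17, 95% interval −0.32 to −0.023, adjusted p = 0.277; −0.22 and adjusted p = 0.0165 without replicate 1). *SPEN*, a large corepressor of the same complex, had 14.5, 14.6 and 16.8 TPM in the controls, 14.8 TPM in Amuc_0904 replicate 1 and 12.0 and 11.7 TPM in replicates 2 and 3 (log2 fold change −0.24, adjusted p = 0.331; −0.34 and adjusted p = 0.0362 without replicate 1). *SNW1*, a coactivator that also works in splicing and the most abundant gene of the group, had 48.0, 53.8 and 54.1 TPM in the controls and 58.2, 51.0 and 51.4 TPM with Amuc_0904 (log2 fold change 0.042, adjusted p = 0.818), and the sign turned without control replicate 1 (−0.013) or Amuc_0904 replicate 1 (−0.018).

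Genes that act on receptor traffic and turnover had means on either side of the controls. *DTX3L*, a ubiquitin ligase of the Deltex family that pairs with PARP9, was the most abundant and had 92.0, 87.5 and 87.3 TPM in the controls and 107.7, 79.6 and 94.3 TPM with Amuc_0904. The treated libraries spanned the controls on each side (log2 fold change 0.067, adjusted p = 0.786), and the sign turned without Amuc_0904 replicate 1 (−0.036). *NUMB*, an endocytic adaptor that limits Notch, had 47.0 to 53.2 TPM in the controls and 46.5 to 54.7 TPM in the Amuc_0904 group (adjusted p = 0.838), and its paralog *NUMBL* had 5.99 to 6.68 and 5.13 to 7.39 TPM (adjusted p = 0.816). *DTX4* had 30.6, 31.6 and 31.8 TPM in the controls, 31.5 TPM in Amuc_0904 replicate 1 and 26.6 and 25.0 TPM in replicates 2 and 3. The first treated library stood within the control range and the others below it (log2 fold change −0.18, adjusted p = 0.371; −0.27 and adjusted p = 0.0173 without replicate 1). *DTX2* had 11.5 to 12.8 and 10.2 to 14.6 TPM, while *DTX1* reached 0.15 TPM in 1 control library and *DTX3* never exceeded 0.03 TPM.

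Of the targets, *HES1* and *NRARP* were well expressed and the others were near 0. *HES1*, the repressor of *ATOH1*, lies on chromosome 3 from 194136145 to 194138732 and had 37.1, 36.2 and 36.0 TPM in the controls and 39.4, 37.0 and 36.8 TPM with Amuc_0904. Replicates 2 and 3 lay within the control range and replicate 1 above it (log2 fold change 0.049, standard error 0.053, adjusted p = 0.679). The 95% interval, −0.075 to 0.17, places the change of *HES1* well inside 1.5-fold on this scale. *NRARP*, an ankyrin protein induced by Notch that feeds back on it, had 29.1, 31.1 and 29.3 TPM in the controls, 30.8 TPM in Amuc_0904 replicate 1 and 24.4 and 25.4 TPM in replicates 2 and 3. With replicate 1 in the control range the change did not pass (log2 fold change −0.15, 95% interval −0.36 to 0.063, adjusted p = 0.452), and without it *NRARP* fell (log2 fold change −0.25, adjusted p = 0.0256). The other targets did not pass the filter. *HEY1* had 0.18 to 0.37 TPM in the controls and 0.03 to 0.22 TPM with Amuc_0904, *HEYL* had 0.16 to 0.18 and 0.14 to 0.26 TPM, *HES5* had at most 0.17 TPM and *HEY2* at most 0.05 TPM. Among the genes whose windows are printed above, *HES5* was listed at 0 in 3 of 6 libraries with the searched letters at 2 places. *HES1* was at 36.0 TPM or more with them at 1 place, and *NRARP* was at 24.4 TPM or more without them. Other spellings of the RBPJ site were not searched, so these are not counts of all possible sites.

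**Figure D2:**
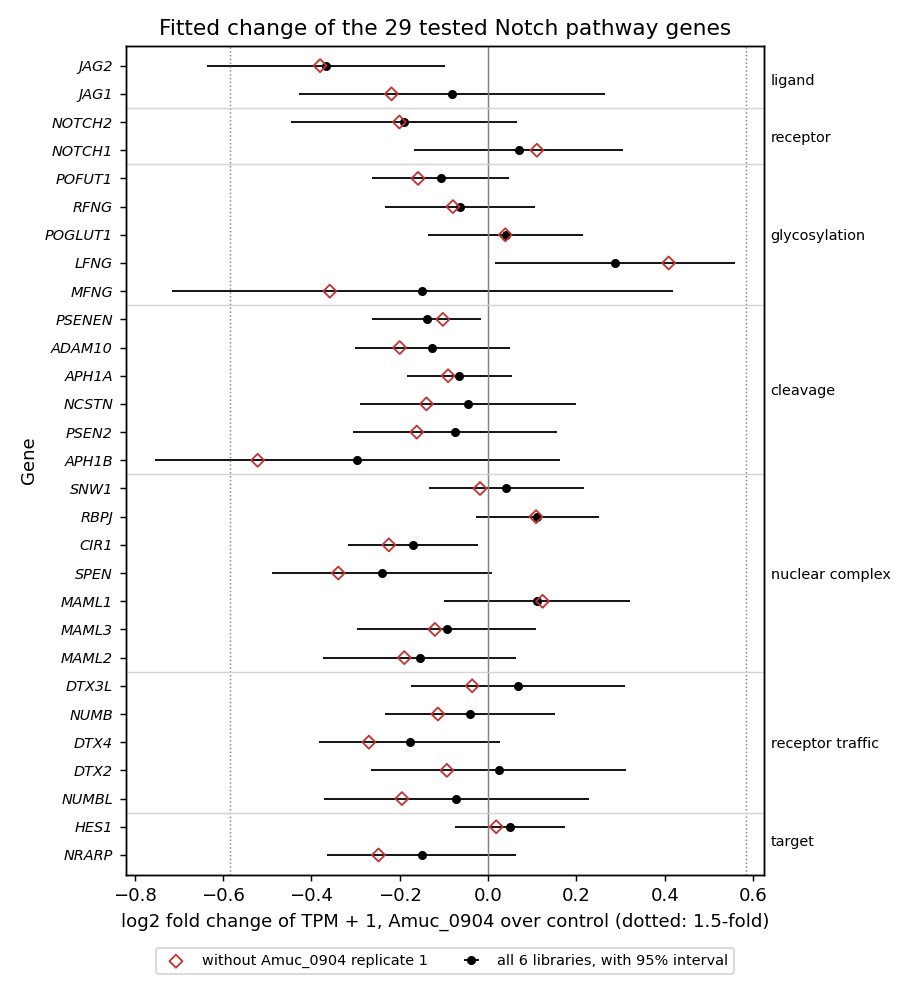
Fitted log2 fold change of TPM + 1, Amuc_0904 over control, for the 29 tested genes in order of role and level (filled circles with 95% intervals, all 6 libraries; open diamonds, without Amuc_0904 replicate 1; dotted lines, 1.5-fold). The intervals of *JAG2*, *PSENEN* and *CIR1* lie below 0 and that of *LFNG* above 0, and for none of them did the adjusted p pass.

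Much of the spread among these genes lay between the treated libraries. Against the control mean on the log2 scale, the 29 genes had medians from −0.025 to 0.040 in the control libraries. The treated libraries had 0.045 (replicate 1), −0.11 (replicate 2) and −0.14 (replicate 3). In 11 of the 29 genes (37.9%) replicates 2 and 3 both lay below every control and replicate 1 did not, a pattern found in 20.8% of all tested genes. These were *JAG1*, *POFUT1*, *ADAM10*, *PSEN2*, *APH1A*, *APH1B*, *MAML3*, *SPEN*, *DTX4*, *NUMBL* and *NRARP*. The opposite pattern was shown by *NOTCH1* alone (3.45%, beside 9.36% of all tested genes). By role, the median in replicates 2 and 3 was −0.16 and −0.15 for the cleavage genes and −0.10 and −0.14 for the nuclear complex, with replicate 1 at 0.060 and −0.040. For receptor traffic it was 0.18, −0.11 and −0.22 in replicates 1 to 3. Without Amuc_0904 replicate 1, *LFNG* rose and *ADAM10*, *APH1B*, *SPEN*, *CIR1*, *DTX4* and *NRARP* fell at an adjusted p under 0.05. These are 3.45% and 20.7% of the 29 genes, where 9.51% of all tested genes rose and 9.24% fell in that fit. The median of the 29 genes was then −0.14, beside −0.028 over all tested genes. A lower mean was found in 23 of the 29, in a fit where most of all tested genes also had one. Over the 12 alternative settings the adjusted p ranged from 0.0154 to 0.632 for *LFNG*, 0.0165 to 0.608 for *CIR1*, 0.0173 to 0.720 for *DTX4* and 0.0226 to 0.853 for *APH1B*. It ranged from 0.0256 to 0.798 for *NRARP*, 0.0307 to 0.797 for *ADAM10* and 0.0362 to 0.665 for *SPEN*, and from 0.0562 to 0.559 for *JAG2*, which passed in none of them. The fit without Amuc_0904 replicate 1 leaves 2 treated libraries, and the share of transcripts from the mitochondrial genome moved with the same libraries, with 12.8% to 13.5% in the controls and 13.0%, 10.6% and 11.1% in Amuc_0904 replicates 1 to 3. Its part in these differences was not tested.

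A further 43 genes of the pathway, covering ligand ubiquitination, receptor turnover, other glycosylation and cofactors of RBPJ, gave 36 tested genes. By limma 0 rose and 0 fell, and at an unadjusted p under 0.05 4 were higher and 3 lower (11.1% and 8.33%, beside 9.95% and 5.87% of all tested genes). Their median log2 fold change was −0.038. *POGLUT3*, an O-glucosyltransferase for Notch, had 19.7 to 21.4 TPM in the controls and 22.7 to 24.6 TPM with Amuc_0904 (log2 fold change 0.22, adjusted p = 0.238). The deacetylase *HDAC2*, the corepressor *CTBP2* and the acetyltransferase *KAT2A* were also higher (log2 fold change 0.23, 0.12 and 0.16, adjusted p = 0.249, 0.283 and 0.273). *EOGT*, which adds O-GlcNAc to Notch, had 6.18 to 6.63 TPM in the controls and 4.58 to 5.35 TPM with Amuc_0904 (log2 fold change −0.29, adjusted p = 0.248). *LNX1*, a ubiquitin ligase for NUMB, and the corepressor *TLE3* were lower as well (log2 fold change −0.27 and −0.34, adjusted p = 0.296 and 0.303). Without Amuc_0904 replicate 1, *HDAC2* rose (adjusted p = 0.00279, with a range over the alternatives up to 0.582).

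In 17 of the 40 genes, GENCODE exons share bases with an exon of another gene, and whether the counting used strand is not stated. *PSENEN* shares 332 bases with *U2AF1L4* (28.0 TPM in the controls and 26.1 TPM with Amuc_0904). *SNW1*, *DTX3L*, *RFNG*, *NCSTN*, *MAML3* and *NOTCH4* share bases with the more abundant *SLIRP*, *PARP9*, *GPS1*, *COPA*, *MGST2* and *GPSM3*, in that order. *MAML3* shares 252 bases with *MGST2*, which had 102.7 TPM in the controls and 104.3 TPM with Amuc_0904. The values of all these members may include reads of their neighbors.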

How the data were processed

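RNA-seq was performed on 6 libraries of HT−29 cells, 3 Control and 3 A904. The authors trimmed reads with SeqPrep and Sickle, aligned them with HISAT2 and assembled them with StringTie, and the submitters' processing notes also list RSEM and edgeR. No version is given for any of them. The values deposited by the authors are TPM per gene. The notes name a mouse build while the gene identifiers are human, so the build behind the values is not known, and positions are those of GENCODE on GRCh38, matched by gene identifier. The table lists 63241 genes, and 25 lines without a gene identifier were left out. All 40 members were found by gene name.

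log2(TPM + 1) was fitted with limma 3.58.1 in R 4.3.3 over the 14333 genes that reached 1 TPM in 3 or more libraries, using robust empirical Bayes and a trend of the variance with the mean, with a term for condition alone. Benjamini-Hochberg adjustment covered all of these genes, and "rose" and "fell" stand for an adjusted p below 0.05. The script was tested on simulated data. No exact test of single genes is given, because 3 against 3 libraries cannot give a two-sided p below 0.1. The members and lists were chosen with earlier results of these data known. Values per library are given for members at an unadjusted p under 0.05, for the most abundant member of each role and for *HES1*, and for other members of interest chosen after their values were seen. The 12 alternatives were another pseudocount, 2 other filters, array weights, median-of-ratios scaling, a replicate block and leaving out each library. Summing *NOTCH2* with its near copies was added after the data were seen. The result of 1 other pathway gene is not reported here.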

Additional observations from a re-analysis of the deposited data

How the results depend on the processing

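The counts of genes that rose or fell, both 0 of 29 members and 0 of 36 other pathway genes, were also 0 with a pseudocount of 0.1 TPM, without a filter, with a filter of 0.5 TPM, with median-of-ratios scaling and with a replicate block. Array weights, which gave Amuc_0904 replicate 1 a weight of 0.224, led to 1 member that rose and 5 that fell, to 2 and 1 of the other genes, and to a median of −0.12 for the members. With these weights 9.17% of all 14333 genes rose and 7.37% fell, with a median of −0.022. Leaving out each library in turn gave 0 to 1 members that rose and 0 to 6 that fell, 0 to 1 of the other genes in each direction, and medians from −0.14 to −0.024, the extremes being without Amuc_0904 replicates 1 and 3. The median was −0.11 without Control replicate 3. Among the libraries left out, calls came only without Amuc_0904 replicate 1. Of the members, 21 kept their sign in all 12 alternatives and 8 did not. With array weights *SNW1*, *DTX2* and *DTX3L* had log2 fold changes of −0.0060, −0.060 and −0.019. Over the libraries left out, *SNW1* went from −0.018 to 0.075, *DTX2* from −0.094 to 0.14, *DTX3L* from −0.036 to 0.18, *NCSTN* from −0.14 to 0.029, *NOTCH1* from −4.6e-05 to 0.11, *MFNG* from −0.36 to 0.092, *NUMB* from −0.11 to 0.0023 and *NUMBL* from −0.20 to 0.031. The median went from −0.083 to 0.032 for the glycosylation genes and from −0.11 to 0.031 for receptor traffic. The signs turned without Amuc_0904 replicate 3 for *NOTCH1*, *MFNG*, *NUMB*, *NUMBL* and both of these medians, without Amuc_0904 replicate 1 for *SNW1*, *DTX2* and *DTX3L*, without Amuc_0904 replicate 2 for *NCSTN*, without Control replicate 1 for *SNW1* and without Control replicate 2 for *NCSTN* and *DTX2*. The cause of these changes was not tested.

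Same-numbered libraries did not deviate together (correlations across genes of 0.046, −0.039 and −0.0047). Whether they were prepared as pairs is not stated, and such correlations cannot show it. With the replicate block the median of the members was −0.075, and over all genes 5 rose and 16 fell, beside 10 and 24 without it. Depth is unknown, and the 11 members that did not pass the filter were tested only with a lower filter or none.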

Other observations

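Genes that Notch controls in the intestinal epithelium were looked at as a separate list of 9, of which 6 were tested and 0 rose or fell by limma. At an unadjusted p under 0.05, 2 of the 6 were higher and 0 lower, beside 9.95% and 5.87% of all tested genes. *ATOH1*, which HES1 represses, had 2.07, 1.72 and 1.91 TPM in the controls and 2.22, 2.60 and 2.65 TPM with Amuc_0904 (log2 fold change 0.27, adjusted p = 0.327). All its treated libraries lay above the controls, while those of *HES1* overlapped them. *KLF4*, a factor of goblet cell maturation, had 6.70 to 7.64 TPM in the controls and 8.18 to 9.38 TPM with Amuc_0904 (log2 fold change 0.24, adjusted p = 0.273). *SPDEF*, another goblet cell factor, had 8.13 to 9.33 TPM in the controls and 8.92, 12.2 and 12.5 TPM with Amuc_0904 (log2 fold change 0.32, adjusted p = 0.300), and it rose without Amuc_0904 replicate 1 (adjusted p = 0.0124, with a range over the alternatives up to 0.629). The cell cycle inhibitor *CDKN1B* had 44.7 to 45.9 TPM in the controls and 41.3 to 45.5 TPM with Amuc_0904 (adjusted p = 0.554), and *CDKN1C* had 1.84 to 2.81 and 2.07 to 2.77 TPM. *ASCL2* had 1.09 to 1.44 TPM in the controls and 1.16 to 1.42 TPM with Amuc_0904 (log2 fold change 0.0055, adjusted p = 0.987). *OLFM4*, a stem cell marker, did not exceed 0.02 TPM in any library. *NEUROG3*, the endocrine factor, had 0.28 to 0.45 TPM in the controls and 0.33 to 0.88 TPM with Amuc_0904, and *GFI1* had 0.21 to 0.37 and 0.29 to 0.40 TPM.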
